A study of Mus musculus with 2 samples.

Results

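Messenger RNA levels of 10 piRNA pathway genes, Ddx4, Mael, Piwil2, Tdrd1, Tdrd9, Asz1, Mov10l1, Pld6, Gtsf1 and Tdrkh, were followed through the cell types of the newborn mouse ovary. The genes were chosen by name for their known part in the pathway, with earlier results of these data known. All 10 were among the 31057 genes measured. Whole ovaries of female mice on a CD1 background were taken at postnatal day 2, when primordial follicles are forming, dissociated, and captured as 2 single-cell RNA libraries. Each library pooled 6 ovaries of 3 pups from 1 female, so the library is the replicate (n = 2) and the cells within it are not. No treatment, genotype or age was compared. The comparisons are between cell types of the same libraries, and between germ cells of different RNA content and different Zp3 level.

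piRNAs are small RNAs of the germline that guide PIWI proteins to transcripts of transposable elements and silence them. They are cut from long precursors at the surface of mitochondria, loaded onto PIWI proteins and trimmed. These steps are tied to cytoplasmic granules called nuage or intermitochondrial cement, which Tudor domain proteins hold together. In male mice the loss of most of these genes stops spermatogenesis, whereas mouse oocytes carry piRNAs next to an abundant class of endogenous small interfering RNAs and females lacking piRNA genes are mostly fertile.

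Cells were assigned to classes from marker genes that include none of the 10 genes. A germ cell had at least 3 of Dazl, Figla, Ooep, Sohlh1, Padi6 and Sycp3 detected, together at least 0.1% of its unique molecular identifiers (UMIs, each standing for 1 captured molecule). The somatic classes were set from Foxl2, Fst and Wnt6 (granulosa cells, which surround the oocyte), Col1a2 and Dcn (interstitial cells) and Upk3b (mesothelial cells of the ovarian surface). After filtering, 3636 cells of replicate 1 and 4371 of replicate 2 remained, among them 238 and 721 germ cells, 1655 and 601 granulosa cells, 1175 and 1949 interstitial cells and 161 and 241 mesothelial cells. Of markers that the rule did not use, 10 of 10 for germ cells, 6 of 8 for granulosa cells (all but Kitl and Irx3), 7 of 7 for interstitial cells and 8 of 8 for mesothelial cells were higher in both libraries of their class than in any other class.

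The libraries stood apart in several ways. Germ cells made up 6.55% of the cells of replicate 1 and 16.5% of those of replicate 2. When all cells were clustered, the germ cells with much RNA fell into separate clusters by library, 1 with 205 cells of replicate 1 and 11 of replicate 2, the other with 2 and 440. In all, 21 cell barcodes occurred in both libraries, 16 of them among the cells kept. Of the germ cells, 5 in replicate 1 and 113 in replicate 2 also met a somatic rule, and leaving these out is among the alternatives. Close to the limits of the rule, 5 and 51 germ cells had exactly 3 of the 6 markers, while 42 and 91 other cells had 3 or more markers below the limit on UMIs. Levels are given as CPM, the UMIs of a gene per 1000000 UMIs of the class in a library, always for replicate 1 and then replicate 2. Since each molecule yields a single 3′ tag, they were not divided by transcript length.

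The 10 genes lie on 9 chromosomes (GRCm38, GENCODE M21), so they are not neighbours in the genome, apart from Mov10l1 (chr15:88982909-89055152, plus strand) and Gtsf1 (chr15:103402405-103430470, minus strand), which share chromosome 15 far from each other. Ddx4 lies at chr13:112598333-112652475, Mael at chr1:166201201-166238747, Piwil2 at chr14:70372477-70429383, Asz1 at chr6:18050964-18109061 and Pld6 at chr11:59783897-59787645, all on the minus strand. Tdrd1 lies at chr19:56826209-56870012, Tdrd9 at chr12:111971559-112068854 and Tdrkh at chr3:94413273-94434668, all on the plus strand. Tdrd9 overlaps Rd3l on the other strand, and Tdrkh overlaps Oaz3 and Gm42464 on the other strand and Gm42463 on its own. Piwil2 and Mov10l1 hold short annotated genes on their own strand (Gm22725 and Gm24890, and Gm23737). How reads shared between overlapping genes were counted is not given in the sources used here.

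Promoters of 9 of the 10 genes were taken from RefSeq (GRCm38.p6), as 250 bases before and 50 after each annotated start. Those with an E-box of the sequence CACGTG are shown, and Gtsf1 is shown as the gene with the highest level. Asz1 and Tdrkh, which lack the E-box, are not shown. Capitals mark CACGTG (its own reverse complement) and the E2F motif GCGGGA on either strand, and no match of one overlaps a match of the other. The windows are chr13:112652261-112652560 (Ddx4), chr1:166238695-166238994 (Mael), chr11:59787608-59787907 (Pld6, the farther upstream of 2 starts) and chr15:103430378-103430677 (Gtsf1) on the minus strand, and chr19:56825959-56826258 (Tdrd1, the first of 3 starts), chr12:111971309-111971608 (Tdrd9) and chr15:88982744-88983043 (Mov10l1) on the plus strand.
Ddx4: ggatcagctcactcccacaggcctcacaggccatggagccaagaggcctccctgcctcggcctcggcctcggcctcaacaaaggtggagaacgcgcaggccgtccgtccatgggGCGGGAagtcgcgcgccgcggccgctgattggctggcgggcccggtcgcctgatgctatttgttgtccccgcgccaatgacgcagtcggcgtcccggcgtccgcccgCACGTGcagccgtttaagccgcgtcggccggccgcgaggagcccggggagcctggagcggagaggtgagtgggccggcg
Mael: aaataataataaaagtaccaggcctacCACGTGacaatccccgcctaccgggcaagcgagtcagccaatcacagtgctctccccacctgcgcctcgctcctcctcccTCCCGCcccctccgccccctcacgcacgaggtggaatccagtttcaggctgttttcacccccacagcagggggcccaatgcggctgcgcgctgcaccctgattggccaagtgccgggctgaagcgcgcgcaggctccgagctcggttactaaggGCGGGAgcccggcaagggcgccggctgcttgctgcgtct
Tdrd1: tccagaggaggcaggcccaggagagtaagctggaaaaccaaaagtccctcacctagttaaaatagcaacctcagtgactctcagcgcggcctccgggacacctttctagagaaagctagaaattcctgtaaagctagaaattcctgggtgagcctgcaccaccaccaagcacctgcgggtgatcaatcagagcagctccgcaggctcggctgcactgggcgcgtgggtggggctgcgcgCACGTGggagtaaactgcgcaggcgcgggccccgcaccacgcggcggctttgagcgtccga
Tdrd9: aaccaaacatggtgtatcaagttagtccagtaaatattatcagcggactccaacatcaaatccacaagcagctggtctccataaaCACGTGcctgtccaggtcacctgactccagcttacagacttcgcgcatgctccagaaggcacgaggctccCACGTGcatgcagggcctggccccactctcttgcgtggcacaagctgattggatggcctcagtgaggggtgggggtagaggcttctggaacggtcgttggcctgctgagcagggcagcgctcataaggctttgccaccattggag
Mov10l1: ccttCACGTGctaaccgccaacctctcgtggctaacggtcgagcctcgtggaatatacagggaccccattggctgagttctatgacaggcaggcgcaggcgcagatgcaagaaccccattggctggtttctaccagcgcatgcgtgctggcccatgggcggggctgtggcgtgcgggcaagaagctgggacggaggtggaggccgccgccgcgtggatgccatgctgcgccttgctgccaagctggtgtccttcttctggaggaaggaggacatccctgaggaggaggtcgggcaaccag
Pld6: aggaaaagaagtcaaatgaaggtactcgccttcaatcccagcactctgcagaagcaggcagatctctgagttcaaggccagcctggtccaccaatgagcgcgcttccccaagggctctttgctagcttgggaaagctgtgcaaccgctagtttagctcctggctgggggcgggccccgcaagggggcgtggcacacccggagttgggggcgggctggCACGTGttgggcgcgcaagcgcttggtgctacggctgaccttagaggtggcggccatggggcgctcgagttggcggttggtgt
Gtsf1: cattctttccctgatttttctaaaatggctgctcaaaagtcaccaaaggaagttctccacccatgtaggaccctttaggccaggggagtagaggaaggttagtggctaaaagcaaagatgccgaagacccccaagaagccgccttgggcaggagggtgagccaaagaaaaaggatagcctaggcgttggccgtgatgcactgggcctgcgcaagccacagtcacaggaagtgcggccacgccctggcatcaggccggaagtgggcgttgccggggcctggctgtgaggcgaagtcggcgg

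The E-box occurred in at least 1 promoter of 6 of the 9 genes, namely those shown above other than Gtsf1, and in 8.09% of the 27025 genes with a promoter in the table. Counting the first transcribed base as 1 and the base before it as -1, its first letter lay at -29 in Ddx4, at -223 in Mael, at -11 in Tdrd1, at -165 and -95 in Tdrd9, at -246 in Mov10l1 and at -33 in Pld6. The E2F motif occurred in Ddx4 and Mael, 2 of the 9 genes, against 22.0% of all genes. The motif AACNGTT of MYB proteins, which include the regulator of piRNA genes in spermatocytes, occurred in none of the 9 genes and in 5.01% of all genes. The windows shown held 55.7% to 72.0% G and C, against a median of 52.7% over all promoters. Their ratio of observed to expected CG pairs was 0.430 to 0.978, against a median of 0.384. CACGTG holds a CG pair, and the shares over all genes were not matched for this. These matches describe the letters of the windows and were not tested.

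All 10 genes were higher in germ cells than in each somatic class, and the groups of libraries did not overlap for any of them. The share of all genes without such overlap was not counted, so the lack of overlap is not read as particular to these genes. The median of the 10 log2 fold changes was 6.25 against granulosa cells, 6.62 against interstitial cells and 7.10 against mesothelial cells, where the median over all genes tested was 0.03, 0.20 and 0.15. With edgeR's quasi-likelihood test on UMIs summed per class and library, all 10 genes were called higher at an adjusted p under 0.05 in each comparison and none lower, and the largest adjusted p was 0.000143 (Pld6 against mesothelial cells). Of the 15004 genes tested, 39.1% were called higher and 36.6% lower in germ than in granulosa cells, 40.6% and 33.4% against interstitial cells, and 38.2% and 31.6% against mesothelial cells, so that a call in itself is common here and the size of the difference says more.

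**Figure D1:**
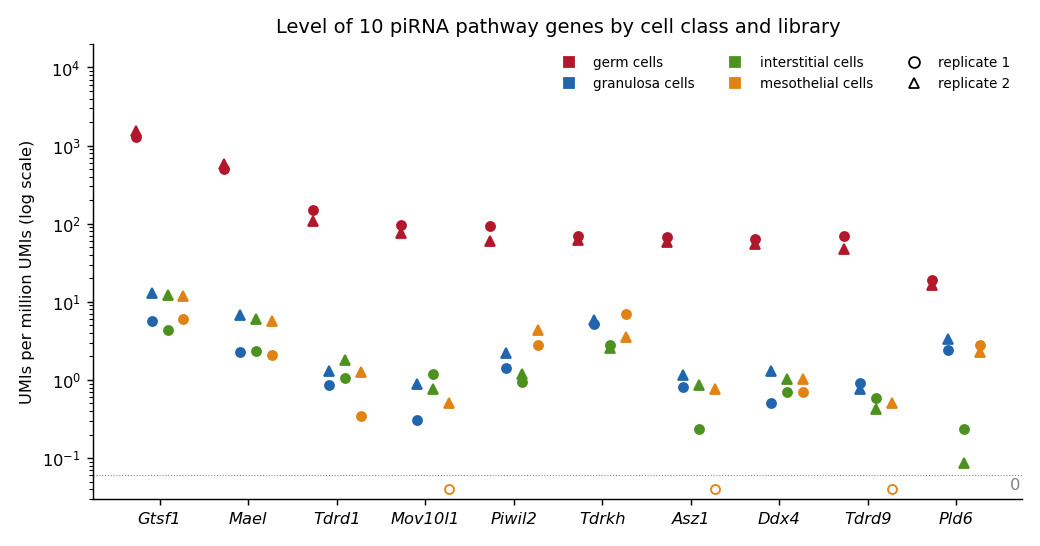
Level of the 10 genes in CPM (log axis) in germ, granulosa, interstitial and mesothelial cells, with circles for replicate 1 and triangles for replicate 2; open symbols below the dotted line mark a level of 0. Every germ cell value lies above every somatic value of its gene, and Pld6 and Tdrkh show the narrowest gaps to granulosa and mesothelial cells.

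Gtsf1, a zinc finger cofactor that PIWI proteins need to cut their targets, had the highest level of the 10. It stood at 1287 and 1559 CPM in germ cells of replicates 1 and 2, at 5.75 and 13.0 CPM in granulosa cells, at 4.36 and 12.2 CPM in interstitial cells and at 5.95 and 12.002 CPM in mesothelial cells. In each somatic class the value of replicate 2 was well above that of replicate 1, while the germ cell values lay closer together. Its log2 fold change was 7.39 ± 0.64 (SE) against granulosa cells (edgeR, adjusted p = 3.1e-05).

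Mael, a protein of nuage needed to silence transposable elements, followed the same pattern at a lower level. It stood at 495 and 579 CPM in germ cells and between 2.10 and 6.80 CPM in the somatic classes, again with the higher somatic values in replicate 2. Its log2 fold changes lay between 7.01 and 7.10 in the 3 comparisons.

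Piwil2, the PIWI protein of the set, binds piRNAs and cuts the transcripts they match. It stood at 92.6 and 60.6 CPM in germ cells, at 1.42 and 2.18 CPM in granulosa cells, at 0.94 and 1.20 CPM in interstitial cells and at 2.80 and 4.34 CPM in mesothelial cells. Both mesothelial values were above all other somatic values. The log2 fold change was therefore smaller against mesothelial cells (4.39 ± 0.30) than against granulosa (5.57 ± 0.29) or interstitial cells (6.15 ± 0.31).

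Of the Tudor domain proteins, Tdrd1, a scaffold that binds Piwil2, stood at 149 and 109 CPM in germ cells and between 0.35 and 1.81 CPM in somatic classes. Tdrd9, which joins a Tudor domain to a helicase, stood at 70.2 and 47.8 CPM in germ cells and between 0 and 0.92 CPM in the somatic classes. Both germ cell levels were higher in replicate 1, by less than 1.5 times. In mesothelial cells Tdrd9 had 2 UMIs in all, so that its ratio of 190 between germ and mesothelial cells has a 95% counting interval from 52.6 to 1571.

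The helicases Ddx4 and Mov10l1 act in nuage, and Mov10l1 feeds precursors to processing. Ddx4, the classical germ cell marker also known as Vasa, stood at only 63.2 and 55.6 CPM in germ cells, with 0.51 to 1.28 CPM in the somatic classes, and its log2 fold change was 6.35 ± 0.33 against granulosa cells. Mov10l1 stood at 94.9 and 76.2 CPM in germ cells and between 0 and 1.18 CPM in the somatic classes. With 2 UMIs in mesothelial cells, its ratio of 282 to that class has a counting interval from 77.9 to 2327.

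Asz1, Pld6 and Tdrkh encode proteins anchored at mitochondria. Asz1, a scaffold of the intermitochondrial cement, stood at 66.8 and 58.2 CPM in germ cells and between 0 and 1.15 CPM in somatic classes. It had 3 UMIs in mesothelial cells, and its ratio of 139 to that class has a counting interval from 47.4 to 673. The other mitochondrial genes differed from the rest of the set.

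Pld6, the nuclease of the outer mitochondrial membrane that makes the first cuts in piRNA precursors, had the lowest germ cell level and the smallest difference to granulosa and mesothelial cells. It stood at 18.8 and 16.2 CPM in germ cells, at 2.44 and 3.34 CPM in granulosa cells, at 2.80 and 2.30 CPM in mesothelial cells and at 0.24 and 0.09 CPM in interstitial cells. The granulosa and mesothelial values overlapped, and both lay above the interstitial values, which rest on 2 UMIs and 1 UMI. Its log2 fold change in germ cells was 2.72 ± 0.27 against granulosa cells and 2.81 ± 0.33 against mesothelial cells. Against interstitial cells the ratio of summed UMIs was 115, with a counting interval from 39.3 to 560.

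Tdrkh, a Tudor and KH domain protein that holds PIWI proteins at mitochondria while piRNAs are trimmed, stood at 69.7 and 61.9 CPM in germ cells. Its somatic values were 5.14 and 5.90 CPM in granulosa cells, 6.996 and 3.57 CPM in mesothelial cells and 2.83 and 2.58 CPM in interstitial cells. The log2 fold changes were 3.68 ± 0.23, 3.70 ± 0.26 and 4.64 ± 0.25 against granulosa, mesothelial and interstitial cells.

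Free RNA in the droplets can give UMIs of germ cell genes in somatic cells. The level in each somatic class was therefore expressed as a percent of the germ cell level of the same library, beside 10 genes that somatic ovarian cells should lack (Zp3, Zp2, Gdf9, Nobox, Lhx8, Nlrp5, Npm2, Oosp1, Tex101 and Nlrp14). In granulosa cells the median of the 10 piRNA genes was 1.01% and 1.80% in replicates 1 and 2, and that of the germ-restricted genes 0.449% and 0.871%. In interstitial cells the medians were 0.929% and 1.26% against 0.433% and 1.01%, and in mesothelial cells 0.443% and 1.25% against 0.404% and 0.734%. Apart from Pld6, Tdrkh and Piwil2, no piRNA gene exceeded 2.31% (Ddx4, granulosa cells of replicate 2). The germ-restricted genes reached 5.20% for Tex101 in interstitial cells and 30.9% for Tex101 in mesothelial cells of replicate 2, where they rest on 2 and 4 UMIs. In interstitial cells of replicate 1 the highest germ-restricted value was 0.651%, and of those 7 piRNA genes some lay above it, up to 1.24% for Mov10l1 with 10 UMIs. Gtsf1 and Mael, the most abundant of the 7, rest on more UMIs (214 and 98 in granulosa cells over both libraries) but stood at 0.339% to 0.831% and 0.424% to 1.18% of their germ cell level. In granulosa cells Tdrd9 (1.30% and 1.61%), Asz1 (1.22% and 1.98%) and Ddx4 (0.805% and 2.31%) lay above most germ-restricted genes. The exceptions were Oosp1 in replicate 1 (1.86%, 2 UMIs) and Tex101 in replicate 2 (3.88%, 1 UMI). The rest of the 7 stood below Nobox (0.629%) in replicate 1 and below Lhx8 (1.25%) in replicate 2. Whether the somatic values of the 7 genes come from free RNA was not tested, and they are not read as expression.

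**Figure D2:**
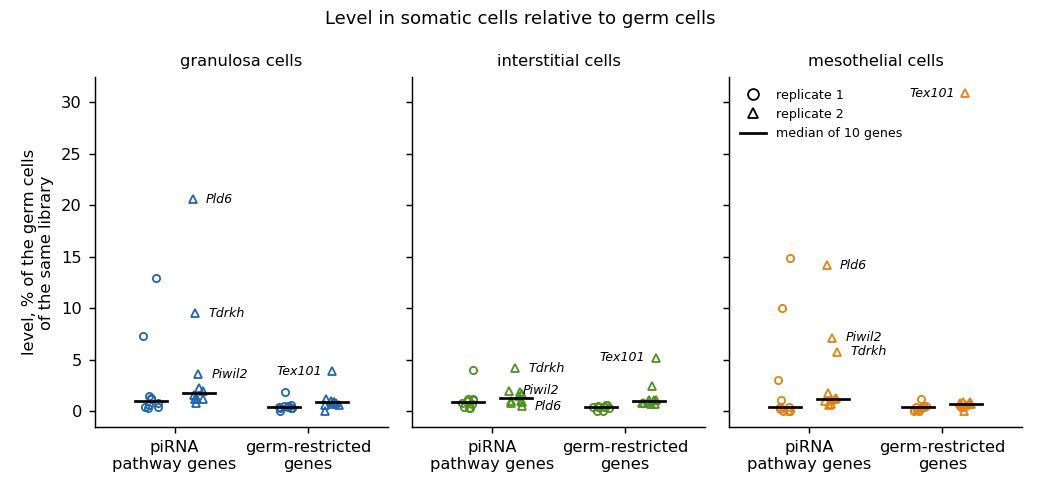
Level in each somatic class as a percent of the level in the germ cells of the same library, for the 10 piRNA pathway genes and 10 germ-restricted genes (circles replicate 1, triangles replicate 2, bars the median of 10 genes; names are given for replicate 2). Pld6 stands at 13.0% and 20.6% in granulosa cells and Tdrkh at 7.36% and 9.53%, while most other genes of both lists lie near 1%.

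Pld6 stood at 13.0% and 20.6% of its germ cell level in granulosa cells, at 14.9% and 14.2% in mesothelial cells and at 1.25% and 0.53% in interstitial cells. Tdrkh stood at 7.36% and 9.53%, at 10.03% and 5.78%, and at 4.06% and 4.17% in the same order, and Piwil2 at 3.02% and 7.16% in mesothelial cells. The somatic classes were then compared with each other in the same fit, a comparison chosen after these values were seen. Against interstitial cells, Pld6 was higher in granulosa cells by 4.09 ± 0.49 on the log2 scale (edgeR, adjusted p = 0.00055) and in mesothelial cells by 4.001 ± 0.57 (edgeR, adjusted p = 0.0016). Tdrkh was higher in granulosa than in interstitial cells by 0.96 ± 0.27 (edgeR, adjusted p = 0.022) and its difference of 0.94 ± 0.32 between mesothelial and interstitial cells did not pass (edgeR, adjusted p = 0.057). Piwil2 was higher in mesothelial than in interstitial cells by 1.76 ± 0.43 (edgeR, adjusted p = 0.017).

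These were the only calls among the 10 genes, 2 higher and none lower in each of the comparisons with interstitial cells, where 20.8% and 19.2% of all genes were called higher and lower in granulosa cells and 16.3% and 16.3% in mesothelial cells. Between mesothelial and granulosa cells none of the 10 was called in either direction, against 9.2% of all genes higher and 9.01% lower. The nearest was Piwil2, higher in mesothelial cells by 1.18 ± 0.40 (edgeR, unadjusted p = 0.018, adjusted p = 0.078), the only 1 of the 10 with an unadjusted p under 0.05. Mesothelial cells also carried the granulosa rule genes at 467 and 463 CPM, against 1434 and 1065 CPM in granulosa cells, and their part in the Pld6 and Tdrkh values was not tested.

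The share of cells with a UMI of a gene depends on depth, and germ cells held a median of 76561 and 44074 UMIs against 9872 and 9688 in granulosa cells. As counted, Gtsf1 was detected in 97.1% and 90.8% of germ cells and in 6.34% and 13.6% of granulosa cells, and Ddx4 in 89.9% and 67.3% of germ cells and 0.60% and 1.66% of granulosa cells. After each cell was thinned to 2000 UMIs, which left out 9 and 97 germ cells and 3 and 4 granulosa cells with fewer, Gtsf1 was detected in 203 of 229 germ cells of replicate 1 (88.6%, exact 95% interval 83.8% to 92.4%) and in 559 of 624 of replicate 2 (89.6%, 86.9% to 91.9%). In granulosa cells it was then detected in 1.51% and 3.85%, and in mesothelial cells in 0 of 161 in replicate 1, which allows a share of up to 1.86% when taken as 3 counts (2.27% as the exact upper limit), and in 3.32% in replicate 2. Ddx4 was detected in 13.5% and 11.9% of thinned germ cells and Pld6 in 3.49% and 2.56%. A germ cell without a UMI of such a gene is therefore ordinary at this depth. The intervals cover counting error only.

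**Figure D3:**
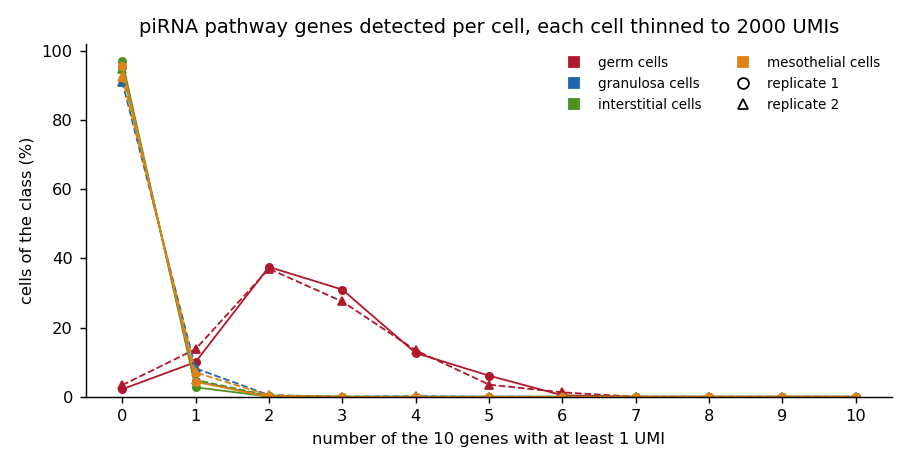
Percent of cells of each class by how many of the 10 genes had at least 1 UMI, after thinning every cell to 2000 UMIs (solid lines and circles replicate 1, dashed lines and triangles replicate 2). Germ cells centre on 2 to 3 genes, whereas 91.1% or more of the somatic cells had none.

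Taking the set as a whole separated the classes at equal depth, with Gtsf1 and Mael by far the most often detected. As means of the 2 libraries, they were detected in 89.1% and 64.7% of thinned germ cells, and the other genes in 3.03% to 20.4%. At least 1 of the 10 genes was detected in 97.8% and 96.6% of thinned germ cells, against 4.60% and 8.88% of granulosa, 2.83% and 5.27% of interstitial and 4.35% and 7.47% of mesothelial cells. At least 3 were detected in 50.2% and 45.8% of thinned germ cells, and in 1 granulosa cell and 1 interstitial cell of replicate 2 among all somatic cells. As counted, all 10 were detected together in 139 germ cells of replicate 1 (58.4%) and 172 of replicate 2 (23.9%), and in no somatic cell.

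Germ cells were divided by RNA content. Those with at least 20000 UMIs, here called RNA-rich, numbered 209 and 431 with a median of 79489 and 62375 UMIs, and the RNA-poor cells numbered 29 and 290 with a median of 3551 and 2858 UMIs. Between 10000 and 40000 UMIs lay 24 and 80 germ cells, so that in replicate 1 the RNA-poor cells are not a group clearly set apart. RNA-poor germ cells of replicate 1 carried erythroid marker genes at 9652 CPM in sum, against 131 CPM in replicate 2 and 6.68 and 20.2 CPM in RNA-rich cells, and the interstitial rule genes stood at 153 and 525 CPM in RNA-poor and 17.2 and 47.5 CPM in RNA-rich cells. The 8 granulosa markers stood at 683 and 410 CPM in sum against 37.0 and 191 CPM, and the median mitochondrial share of UMIs was 0.817% and 0.889% in RNA-poor against 2.53% and 2.85% in RNA-rich cells. The part of these in the differences below was not tested, and whether the RNA-poor cells are intact oocytes was not settled.

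The summed level of the 10 genes was 2414 and 2634 CPM in RNA-rich and 1720 and 2391 CPM in RNA-poor germ cells, and within that sum the genes moved in different directions. Ddx4 stood at 62.6 and 53.0 CPM in RNA-rich and at 122 and 109 CPM in RNA-poor cells, and both RNA-poor values lay well above both RNA-rich ones. Gtsf1 stood at 1295 and 1581 CPM in RNA-rich and at 567 and 1094 CPM in RNA-poor cells, and the values did not overlap, but the difference was larger in replicate 1. Mael stood at 494 and 572 CPM against 641 and 709 CPM, and Asz1 at 66.6 and 57.0 CPM against 91.5 and 82.1 CPM, both lower in RNA-rich cells in each library.

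Without the library in the fit, none of the 10 genes was called between RNA-rich and RNA-poor cells, and nor was any of the 12780 genes tested (0% higher and 0% lower). At an unadjusted p under 0.05, edgeR gave 1 of the 10 higher (Gtsf1) and 1 lower (Ddx4). Of all 12780 genes, 1067 were higher and 1141 lower at that level. DESeq2 called none of the 10 at an adjusted p under 0.05, against 31 of 11663 genes higher (0.266%) and 196 lower (1.68%). The sums of a library come from the same pups and the same droplet run, so the library pairs them. With the library as a replicate block, Gtsf1 was called higher in RNA-rich cells by 0.91 on the log2 scale (edgeR, adjusted p = 0.00029) and Ddx4 was lower, with a log2 fold change of -0.94 (edgeR, adjusted p = 0.020), where 1.46% of all genes were called higher and 3.03% lower. Across the 10 alternatives with a test, the adjusted p ran from 0.0085 to 0.28 for Ddx4 and from 3.6e-06 to 0.43 for Gtsf1. The other 8 genes were called in neither fit.

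**Figure D4:**
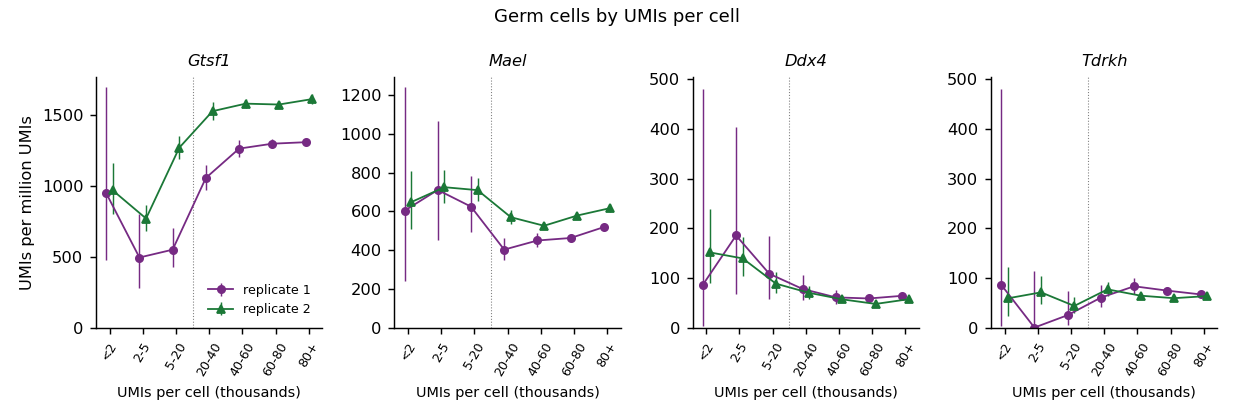
Level of Gtsf1, Mael, Ddx4 and Tdrkh in germ cells grouped by UMIs per cell, in CPM, with exact 95% counting intervals (circles replicate 1, triangles replicate 2; the dotted line marks 20000 UMIs). Gtsf1 is lower and Ddx4 higher below 20000 UMIs, with wide intervals in replicate 1, where 29 cells lie below the line.

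In replicate 2, the Ddx4 level was 152 CPM in the 97 cells under 2000 UMIs. It was 139 CPM between 2000 and 5000 and 88.5 CPM between 5000 and 20000 UMIs. Between 20000 and 40000, 40000 and 60000, and 60000 and 80000 UMIs it was 69.9, 56.8 and 47.6 CPM, and above 80000 UMIs 57.2 CPM. Ddx4 thus fell from group to group up to 80000 UMIs and rose in the last. Gtsf1 in the same groups stood at 968, 770, 1270, 1528, 1582, 1575 and 1614 CPM, with little change above 40000 UMIs. In replicate 1 the groups under 20000 UMIs held 9 to 10 cells each, too few for an order. Tdrkh stood at 70.2 and 62.3 CPM in RNA-rich and at 24.4 and 53.2 CPM in RNA-poor cells, the lowest of which rests on 4 UMIs. Tdrd1 (149 and 109 against 85.4 and 108 CPM) and Mov10l1 (95.3 and 76.5 against 54.9 and 70.4 CPM) were near equal in replicate 2. Piwil2, Tdrd9 and Pld6 differed in opposite directions in the libraries, and RNA-poor cells of replicate 1 held 1 UMI of Pld6.

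RNA-rich germ cells were next divided at the median level of Zp3 in their library. Zp3 encodes a protein of the egg coat, the zona pellucida, whose transcript rises as oocytes enter growth, and it was used neither in the germ cell rule nor as one of the 10 genes. The cells above the median numbered 104 and 215, with a median Zp3 level of 1518 and 952 CPM and 94240 and 70891 UMIs per cell. Those below numbered 105 and 216, with 487 and 153 CPM of Zp3 and 71494 and 55012.5 UMIs. The summed level of the 10 genes was 2460 and 2627 CPM above and 2351 and 2643 CPM below the median.

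Tdrd9 stood at 83.1 and 52.1 CPM above and at 52.7 and 40.3 CPM below the median, higher above it in each library, though the value above in replicate 2 was under the value below in replicate 1. Mael (514 and 600 against 465 and 536 CPM) and Tdrd1 (156 and 114 against 140 and 102 CPM) were also higher above the median in each library, by smaller steps. Asz1 stood at 58.5 and 49.9 CPM above and at 77.8 and 66.4 CPM below, with no overlap. Pld6 (15.9 and 14.4 against 23.1 and 17.6 CPM) and Mov10l1 (83.9 and 72.8 against 111 and 81.3 CPM) were lower above the median in each library. Tdrkh was called in neither fit, at 68.4 and 58.7 CPM above and 72.7 and 67.1 CPM below. Ddx4 was 62.5 and 53.1 CPM above and 62.8 and 53.0 CPM below, and Gtsf1 and Piwil2 differed in opposite directions in the libraries.

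Without the library in the fit, edgeR called none of the 10 genes between these cells, against 0.0308% of 13000 genes higher and 0% lower. Asz1 alone of the 10, lower above the median, had an unadjusted p under 0.05 (edgeR). Of all 13000 genes, 1355 were higher and 1055 lower at that level. DESeq2 called none of the 10, against 334 of 12756 genes higher (2.62%) and 142 lower (1.11%). With the library as a replicate block, 3 of the 10 were called higher and 3 lower, against 16.7% and 13.5% of all genes. The log2 fold changes were 0.54 for Tdrd9 (edgeR, adjusted p = 0.00019), 0.19 for Mael (edgeR, adjusted p = 0.0014) and 0.20 for Tdrd1 (edgeR, adjusted p = 0.013). They were -0.38 for Asz1 (edgeR, adjusted p = 0.0011), -0.24 for Mov10l1 (edgeR, adjusted p = 0.017) and -0.37 for Pld6 (edgeR, adjusted p = 0.039). For each of these 6 genes the block gave the lowest adjusted p of its alternatives, and the highest lay between 0.47 (Asz1) and 0.95 (Tdrd1). The blocked fits rest on 4 sums and leave 1 residual degree of freedom for each gene.

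**Figure D5:**
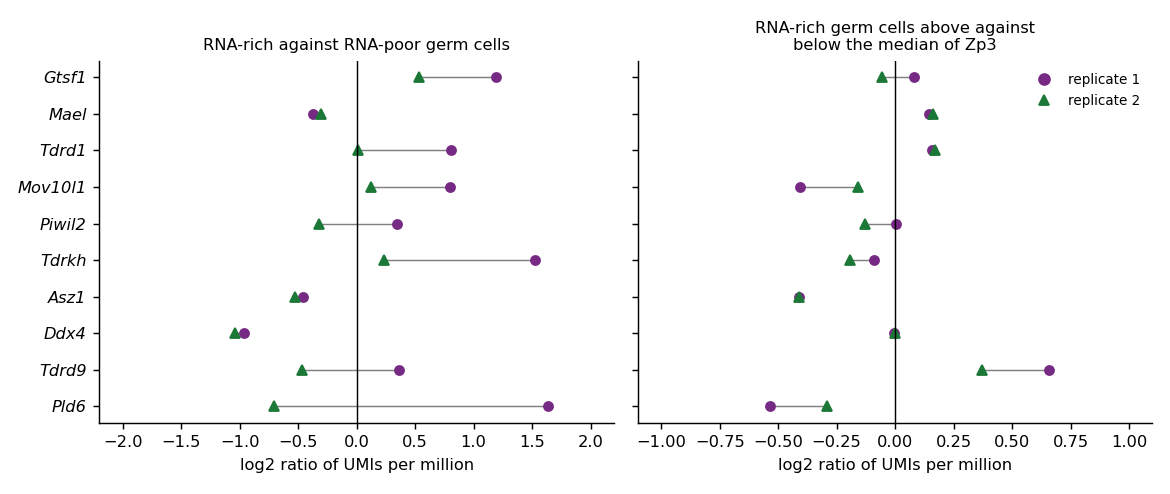
Log2 ratio of the level of each gene within each library (circles replicate 1, triangles replicate 2), left for RNA-rich against RNA-poor germ cells and right for RNA-rich germ cells above against below the library median of Zp3; the axes differ in range. In the first panel, Ddx4, Mael and Asz1 lie left of 0 in both libraries. Gtsf1, Tdrkh, Mov10l1 and Tdrd1 lie right of it there, Tdrd1 by only 0.01 in replicate 2. In the second panel, Tdrd9, Mael and Tdrd1 lie right of 0 and Asz1, Pld6, Mov10l1 and Tdrkh left of it in both libraries.

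A list of 25 other genes of the piRNA pathway gave the surroundings of the 10. Of these, 24 were in the matrix and 21 were tested. In germ cells 19 were called higher than in granulosa cells, 19 than in interstitial cells and 20 than in mesothelial cells, and 1, Wdr77, was lower in all 3 comparisons. Over all genes, 39.1% were called higher and 36.6% lower against granulosa cells. The shares were 40.6% and 33.4% against interstitial and 38.2% and 31.6% against mesothelial cells. The median log2 fold changes were 5.72, 5.22 and 5.73. Among members with at least 50 CPM in germ cells, Fkbp6, a co-chaperone of piRNA loading, stood at 397 and 362 CPM in germ cells and between 1.53 and 7.83 CPM in somatic classes. Tdrd5, a Tudor domain protein of nuage, stood at 158 and 126 CPM in germ cells, at 28.3 and 45.2 CPM in interstitial and 25.9 and 17.1 CPM in granulosa cells, but at 1.05 and 1.79 CPM in mesothelial cells. Tex15, a nuclear partner of PIWI-directed silencing, stood at 154 and 105 CPM in germ cells and at 43.5 and 24.3 CPM in granulosa cells.

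The arginine methyltransferase Prmt5, which marks PIWI proteins for Tudor binding and serves all cells, stood at 54.2 and 61.9 CPM in germ cells and between 28.0 and 37.3 CPM in the somatic classes. Its partner Wdr77 went the other way, with 16.0 and 13.5 CPM in germ cells and 34.0 to 47.6 CPM in the somatic classes. The other PIWI genes were scarce in germ cells. Piwil1 stood at 5.34 and 1.15 CPM with no UMI in any of the somatic classes, and Piwil4 at 8.496 and 6.55 CPM. With the library as a replicate block none of the 21 was called between RNA-rich and RNA-poor germ cells. Between RNA-rich cells above and below the median of Zp3 none of the 21 was called without the block (edgeR, none higher and 2 lower at an unadjusted p under 0.05). Of all 13000 genes, 1355 were higher and 1055 lower at that unadjusted level. The blocked fit called 2 of the 21 higher (Piwil1 and Tdrd5) and 3 lower (Piwil4, Rnf17 and Henmt1), shares no larger than or close to the 16.7% and 13.5% of all genes.

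The 14 genes of the miRNA and siRNA machinery included genes called in each direction. In germ cells 5 were called higher and 7 lower than in granulosa cells, 6 and 2 against interstitial cells, and 6 and 5 against mesothelial cells, with median log2 fold changes of -0.04, 0.19 and 0.36. Over all genes 39.1% were called higher and 36.6% lower, 40.6% and 33.4%, and 38.2% and 31.6% in the same order. The shares called higher are thus near those of all genes. Called lower against granulosa cells were 7 of 14, above the share of all genes. Against interstitial cells it was 2 of 14, below that share, and against mesothelial cells 5 of 14, near it. Dicer1 and Drosha, the nucleases that cut small RNA precursors, were higher in germ cells, at 185 and 156 CPM and at 184 and 202 CPM, against 20.6 to 29.0 CPM and 14.6 to 26.2 CPM in the somatic classes. Tarbp2, a partner of Dicer1, stood at 87.1 and 85.5 CPM in germ cells and at 20.99 to 30.3 CPM in the somatic classes. Tnrc6b, a silencing protein that binds Argonautes, stood at 88.7 and 92.7 CPM in germ cells and was called higher only against interstitial cells. Lower in germ cells than in granulosa cells were Ago1, Ago2, Ago3, Dgcr8, Prkra, Tnrc6a and Mov10, the closest relative of Mov10l1. Mov10 stood at 8.25 and 9.96 CPM in germ cells and 33.4 and 29.4 CPM in granulosa cells, the reverse of Mov10l1. Ago1 (6.13 and 7.09 CPM in germ cells) and Prkra (16.4 and 16.5 CPM) were lower in germ cells in all 3 comparisons.

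Among 3143 genes with at least 50 CPM in germ cells of both libraries, those whose pattern was most like the mean of the 10 were sought over 10 sums (RNA-rich germ, RNA-poor germ, granulosa, interstitial and mesothelial cells, each in both libraries). Likeness was the root mean square difference of centred log2(CPM + 1) values. The nearest were Hsf2bp (0.18), Mtmr14 (0.18), Sohlh2 (0.18), C86187 (0.21) and Gpr143 (0.21). Hsf2bp, a meiotic recombination protein, stood at 78.7 and 80.1 CPM in RNA-rich and 73.2 and 68.0 CPM in RNA-poor germ cells, and at most 2.31 CPM in somatic classes. Of the 10 genes themselves, Tdrd9 lay nearest to their mean (0.27) and Pld6 farthest from it (1.40), followed by Tdrkh (1.06).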

How the data were processed

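The authors deposited UMI counts per gene and barcode, made with Cell Ranger 3.0.2 on GRCm38 per the submitters' processing notes and limited to barcodes called as cells. Replicates 1 and 2 held 4094 and 4847 cells with 54471790 and 59074480 UMIs (medians 8315.5 and 5798 per cell). The labels name version 2 of the Chromium 3′ kit and the methods version 3. The notes on the study's own filters and clustering were not used here, so these steps were set anew.

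Barcodes with fewer than 500 genes or over 10% mitochondrial UMIs were removed, 356 and 383 in the 2 libraries. Doublets were called with Scrublet (scanpy 1.11.5) at an expected share of 0.05. The automatic threshold of replicate 2 (0.519) marked 2 cells, so that of replicate 1 (0.224) was applied to both, a choice made after the scores were seen, and 102 and 93 cells were removed. Germ cells were assigned first, then mesothelial cells (at least 2 UMIs and 0.02%), granulosa cells (2 UMIs and 0.02%) and interstitial cells (3 UMIs and 0.05%). Cells meeting both of the last rules (261 and 603) or none (146 and 256) were left out. UMIs were summed per library and class and tested with edgeR 4.0.16 (filterByExpr, TMM, glmQLFit and glmQLFTest, R 4.3.3), in 1 fit over the 4 classes and 1 for each comparison within germ cells, with Benjamini-Hochberg adjustment over all genes and a threshold of 0.05. The test was checked on simulated data. DESeq2 1.42.0 was an alternative. Standard errors are log2 fold changes divided by the root of the F statistic. Thinning drew 2000 UMIs per cell without replacement.

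The sums of a library come from the same animals and droplet run and are therefore paired. The deviations of a library correlated by 0.077 to 0.232 between the 4 classes, by 0.048 between RNA-rich and RNA-poor cells, and by 0.758 between cells above and below the Zp3 median. The 10 genes, the lists, the division at 20000 UMIs and the tests were chosen with earlier results of these data known. Named were all 10 genes, list members with at least 50 CPM in germ cells of both libraries or called against the direction of most of the 10, and the 5 genes of most similar pattern. Piwil1, Piwil4, Rnf17 and Henmt1 fall outside this rule and were chosen after their values were seen.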

Additional observations from a re-analysis of the deposited data

Results flagged for a closer look

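Some kept cells met no class rule, 146 in replicate 1 and 256 in replicate 2, and entered no comparison. The summed level of the 10 genes in them was 28.3 CPM (40 UMIs) in replicate 1 and 128 CPM (142 UMIs) in replicate 2. These values were picked out because they exceed the highest somatic class of the same library, 21.7 and 36.6 CPM, while the germ cells stood at 2407 and 2623 CPM. In replicate 2, 108 of these cells held under 2000 UMIs. In replicates 1 and 2, 3 and 15 of the cells of no class lay in clusters with germ cell marker genes. Among all kept cells outside the germ class, 2 and 59 had 2 markers of the germ cell rule and passed its limit on UMIs. How many of those met no class rule was not counted. The source of the UMIs in the cells of no class, missed germ cells included, was not tested. In the clusters with immune marker genes, Tdrkh had a mean of 19.99 CPM over the libraries (SD 1.55, 12 UMIs). Its highest value in a somatic class was 6.996 CPM, in mesothelial cells of replicate 1. Gtsf1 (14.59 CPM), Mael (13.24 CPM) and Tdrd9 (8.27 CPM) rest on 8, 7 and 5 UMIs in those clusters. Tdrd1 (3.46 CPM) and Ddx4 (2.11 CPM) rest on 2 UMIs and 1 UMI there, and Asz1, Mov10l1, Piwil2 and Pld6 had none. In cells that met both the granulosa and the interstitial rule, 261 and 603, the summed level of the 10 genes was 16.7 and 27.6 CPM, under the highest somatic class.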

How the results depend on the processing

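All 10 genes stayed higher in germ cells than in each somatic class in all 330 refits (11 alternatives for each gene and comparison). Every adjusted p, where both libraries gave a test, stayed under 0.05 with 1 exception, Pld6 against mesothelial cells after thinning to 2000 UMIs (log2 fold change 2.36, edgeR, adjusted p = 0.0502). In either library alone all 10 were higher by direction. Between RNA-rich and RNA-poor germ cells, none was called in the reported fit. The library as a replicate block gave 1 higher and 1 lower, against 1.46% and 3.03% of all genes. No filter on low counts gave 1 higher (Gtsf1) and 1 lower (Ddx4), against 2.62% and 4.29%. Leaving out germ cells that also met a somatic rule gave 1 lower (Ddx4, edgeR, adjusted p = 0.047), against 0.154% of all genes. In that fit none of the 10, Gtsf1 included, was higher even at an unadjusted p under 0.05 (edgeR), and 3 were lower. Of 12306 genes, 801 were higher and 793 lower at that level. With a stricter germ cell rule, or a limit of 40000 UMIs, no gene at all was called at an adjusted p under 0.05 (edgeR). The stricter rule gave none of the 10 higher and 3 lower at an unadjusted p under 0.05 (edgeR). At that level 820 of 12595 genes were higher and 694 lower. The limit of 40000 UMIs gave none of the 10 higher and 2 lower, against 854 and 934 of 13059 genes. The cause of these differences was not tested. By direction alone, single libraries gave 4 to 7 of the 10 genes higher and 3 to 6 lower. Between cells above and below the Zp3 median the block gave 3 higher and 3 lower instead of none, against 16.7% and 13.5% of all genes. By direction alone, single libraries gave 4 to 5 higher and 5 to 6 lower. The shares of all genes by direction in single libraries were not counted for any comparison. The block changed no call of the 10 genes between germ and somatic classes. At a thinning depth of 5000 UMIs, the median share of germ cells with a UMI of a gene was 33.3% and 25.8%. At 2000 UMIs it was 15.9% and 12.4%. The greater depth reads more UMIs per cell, but it also leaves out 19 and 214 germ cells instead of 9 and 97. The part of each in the rise was not tested. Another scaling moved the median over all genes by over 0.1 on the log2 scale in 2 cases, with DESeq2 to -0.31 for RNA-rich against RNA-poor cells and to 0 against mesothelial cells, both over more genes. The RNA-poor cells of replicate 1 (29 cells) set the depth limit: a gene there rests on 1 to 105 UMIs.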
